A study of Oryctolagus cuniculus with 36 samples.

Results

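The livers labelled FK were compared with those labelled WT (wild type) in RNA sequencing of rabbits, from a study of Cas9 gene correction in newborn animals with hereditary tyrosinemia type I. The FK and WT libraries were chosen by their titles and were 24 of the 36 in the study, 12 of each, and a further group labelled FA held the other 12. Titles place the 12 libraries of a group in 3 numbered sets of 4. The 4 libraries of each set were summed, so that every comparison below is of 3 FK sets with 3 WT sets. The labels do not spell out FK or FA, and they give no genotype, allele, treatment, strain, sex or age of any animal. All groups, WT included, carry the same label of a tyrosinemia model and the same protocol, in which livers of treated rabbits were digested with trypsin and RNA was taken with TRIzol. No label says how many animals stand behind a set, so the p-values reflect how far these sets vary, and that variation may be technical.

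Fumarylacetoacetate hydrolase (FAH) carries out the last step of tyrosine breakdown. When it is missing, the reactive compounds made just before that step build up in hepatocytes and in the kidney, where they injure the cells that make them. Hepatocytes, the main cells of the liver, hold most of its RNA and carry out its synthesis of sterols, fats, plasma proteins and bile acids, so a whole-liver library chiefly reads hepatocyte genes.

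FAH was low in every FK set. It stood at 237, 271 and 217.5 CPM (counts per M counts, scaled by TMM factors) in WT sets 1, 2 and 3 and at 16.4, 11.8 and 14.6 CPM in FK sets 1, 2 and 3. The highest FK set lay far below the lowest WT set, and the 3 FK sets were close to each other. The fall was 17-fold in mean CPM (fitted log2 -4.08, SE 0.23, adjusted p = 0.000466), by the quasi-likelihood F test of edgeR, adjusted after Benjamini and Hochberg over 14939 genes. That test is used for every adjusted p in the report, and a gene is called, or said to have risen or fallen, at an adjusted p under 0.05. With any 1 of the 9 sets left out, the adjusted p of FAH stayed between 2.94e-05 and 0.00581.

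Libraries held 11.7 to 16.1 M counts in FK and 14.2 to 18.7 M in WT, which gave 53.2 to 67.4 M per set. Log CPM correlated across genes at a median r of 0.987 within sets and 0.96 between sets of a group, where the lowest was 0.815. These values describe all genes and carry no test. After its 4 libraries were summed, FK set 3 had an r of 0.854 and 0.821 with FK sets 1 and 2, of 0.940 to 0.942 with the WT sets and of 0.958 to 0.970 with the FA sets. By this measure FK set 3 was closer to both other groups than to FK sets 1 and 2, and values are therefore given for each set. The labelled tissue was checked against 18 hepatocyte markers, whose summed level was 224944, 276291 and 292730.0 CPM in WT sets 1, 2 and 3 and 305593, 196351 and 283930.0 CPM in FK sets 1, 2 and 3. These ranges overlapped. Albumin (ALB), the main plasma protein, stood at 159014, 214591 and 218584 CPM in WT and 145986, 85068 and 180795 CPM in FK and was not called (adjusted p = 0.759). It made up much of the summed level, so the sum says little about the other markers. Of the 18 markers 1 was called, APOA1, which was higher (5.56%). At an unadjusted p under 0.05, 5 were higher and 3 lower, against 16.7% and 10.2% of all genes. The summed level of 16 erythroid markers, of which 1 (6.25%, against 3.04% of all genes) was called higher (TFRC, the transferrin receptor), was 44.8, 52.4 and 115 CPM in WT sets 1, 2 and 3 and 1012, 2717 and 159 CPM in FK sets 1, 2 and 3, highest by far in FK sets 1 and 2. All 16 were higher at an unadjusted p under 0.05 (16.7% of all genes were), DESeq2 called all 16 higher (10.9% of the tested genes to which it gave an adjusted p), and edgeR did so without FK set 3 (18.7% of all genes). Their median log2 difference from the WT mean was 6.03, 7.97 and -1.26 in FK sets 1, 2 and 3. TFRC alone stood at 24.5, 19 and 28.1 CPM in WT and 189, 322 and 143 CPM in FK, and made up most of the sum in FK set 3. In FA it stood at 131, 242 and 109 CPM. In bulk RNA, a change in the number of cells of a type and a change in RNA per cell cannot be told apart.

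Across the transcriptome, 712 of 14939 genes (4.77%) were called between FK and WT, of which 454 (3.04%) were higher and 258 (1.73%) lower in FK. Before adjustment, 4016 genes had a p under 0.05. In 4080 genes (27.3%) the 3 FK sets did not overlap the 3 WT sets, 2075 above and 2005 below, and 683 of the called genes were among these. The rises were larger than the falls. Called rises had a median size of 2.60 on the log2 scale and 124 of the 454 exceeded 16-fold, while called falls had a median size of 1.73 and 40 of the 258 exceeded 16-fold. The falls were also shared more evenly by the FK sets. The median of the called falls was -2.04, -1.87 and -1.45 in FK sets 1, 2 and 3 against the WT mean, and that of the called rises was 2.67, 2.55 and 1.07. In 145 of the 258 falls, but in 163 of the 454 rises, the highest FK set was under 2 times the lowest. These medians and counts describe genes chosen by the same contrast and carry no test.

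The genes called higher took 0.260% to 0.279% of all counts in the WT sets and 2.04%, 2.74% and 0.610% in FK sets 1, 2 and 3. The genes called lower took 2.38% to 3.23% in the WT sets and 0.593%, 0.805% and 0.801% in FK sets 1, 2 and 3. By share of counts, the fall of this second group was similar in all FK sets, whereas the gain of the first lay mainly in FK sets 1 and 2. Both groups were chosen by the same contrast, so these shares describe the chosen genes only and carry no test. Over all genes tested, the rises and the falls both parted FK set 3 from the other FK sets. In FK sets 1 and 2, 1864 and 2017 genes lay at least 2-fold above every WT set and 1874 and 1909 at least 2-fold below. In FK set 3 the numbers were 697 and 669, lower in both directions. In the FA livers, which were not part of this contrast but share its fit, the genes called higher in FK had medians of 0.62, 0.73 and 0.72 against WT in sets 1, 2 and 3, and those called lower had medians of -0.78, -0.77 and -0.84.

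**Figure D1:**
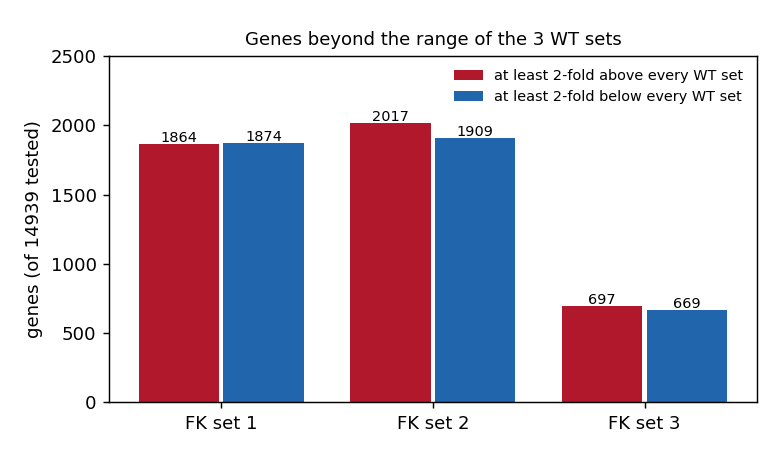
Number of genes, of 14939 tested, that lay at least 2-fold above (red) or at least 2-fold below (blue) every WT set, for each FK set. FK sets 1 and 2 had 1864 to 2017 such genes in each direction and FK set 3 had 697 and 669.

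The calls depended on single sets. Without FK set 1, FK set 2 and FK set 3 there were 22, 57 and 5396 calls. Without WT set 1, WT set 2 and WT set 3 there were 28, 32 and 35. Without FA set 1, FA set 2 and FA set 3, which are in neither of the groups compared but enter the same fit, there were 113, 154 and 103. All 712 genes kept their call and direction without FK set 3. A fit of the FK and WT sets alone made 43 calls, and DESeq2 made 2721, of which 710 were among the 712.

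Genes that were called in the main fit and under all 17 alternatives numbered 16. They were picked out after their values were seen, and 8 were higher and 8 lower in FK. Of the genes that rose, GPC3, a heparan sulfate proteoglycan of the fetal liver, stood at 1.98, 3.22 and 2.22 CPM in WT and 159.9, 207 and 67.6 CPM in FK. Every FK set was above every WT set, with FK set 3 the lowest of the FK sets, and the rise was 58.6-fold (adjusted p = 0.00321). FANCD2, a central protein of the Fanconi pathway that repairs DNA crosslinks, stood at 0.783, 1.11 and 0.972 CPM in WT and 26.3, 22.3 and 11.8 CPM in FK, a rise of 21.1-fold (adjusted p = 0.00321). DBF4, the activating partner of the CDC7 kinase that fires replication origins, stood at 4.07, 3.93 and 4.16 CPM in WT and 19, 22.4 and 13 CPM in FK. Its WT sets were nearly equal and all FK sets lay well above them, with a rise of 4.47-fold (adjusted p = 0.00671).

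SCG3, a secretogranin of the secretory granules of endocrine cells, stood at 0.479, 0.998 and 1.05 CPM in WT and 28.6, 18.2 and 37.2 CPM in FK. The rise was 33.2-fold (adjusted p = 0.00321). FOXP2, a forkhead transcription factor, stood at 0.24, 0.403 and 0.437 CPM in WT and 7.45, 4.72 and 5.73 CPM in FK, a rise of 16.6-fold (adjusted p = 0.00321). ACPP, the prostatic acid phosphatase, stood at 0.16, 0.161 and 0.113 CPM in WT and 3.48, 8.45 and 8.23 CPM in FK (log2 5.52, SE 0.53, adjusted p = 0.00447). SOWAHC, an ankyrin repeat protein, stood at 6.02, 7.23 and 6.45 CPM in WT and 27.1, 27.4 and 39.8 CPM in FK, a rise of 4.79-fold. In SCG3 and SOWAHC, FK set 3 was the highest FK set, in contrast to GPC3, FANCD2 and DBF4, where it was the lowest. The last of the 8 is a protein-coding gene known only by its identifier, LOC100353012. It had 0 counts in WT and 284 in FK, which makes it at least 94.0-fold higher in FK against a floor of 3 counts over the WT group, and it stood at 1.02, 1.9 and 1.6 CPM in FK sets 1, 2 and 3.

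Besides FAH, the falls called under every alternative included genes of lipid handling. G0S2, a protein that inhibits the main triglyceride lipase of lipid droplets, stood at 78.6, 84.5 and 46.2 CPM in WT and 3.74, 5.64 and 2.37 CPM in FK. No FK set came near the lowest WT set, and the fall was 17.8-fold (adjusted p = 0.00449). The identifier LOC100353947, which RefSeq (assembly mOryCun1.1) names CYP2U1, a P450 that hydroxylates fatty acids, stood at 93.3, 103 and 105 CPM in WT and 12.7, 12.6 and 14.8 CPM in FK (log2 -2.91, SE 0.31, adjusted p = 0.00601). P450 genes have similar copies among which shared reads are divided, so its level is uncertain. Within each group its sets were almost equal. GOLT1A, a Golgi transport protein, stood at 26.1, 24.2 and 25.8 CPM in WT and 6.33, 7.07 and 8.4 CPM in FK, a fall of 3.49-fold (adjusted p = 0.00398). HMCN2, a hemicentin of the extracellular matrix, stood at 42.2, 28.3 and 50.6 CPM in WT and 1.25, 1.32 and 3.13 CPM in FK, a fall of 21.3-fold (adjusted p = 0.00447). In HMCN2 the least reduced set was FK set 3.

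The non-coding RNA LOC103349317 stood at 18, 29.3 and 25.3 CPM in WT and 0.559, 0.682 and 1.69 CPM in FK (log2 -4.63, SE 0.49, adjusted p = 0.00601), a 24.8-fold fall that was 39-fold without FK set 3. KRBOX1, a gene with a KRAB box, fell to 0.847, 0.652 and 2.16 CPM in FK sets 1, 2 and 3 from 27.7, 30.1 and 24.9 CPM in WT, a fall of 22.6-fold that was 36.7-fold without FK set 3. In both, the FK sets lay well under the lowest WT set and FK set 3 was the least reduced. LOC100348853, protein-coding and without a symbol, had 1384 counts over the WT sets and 1 over the FK sets, a ratio of 1393 with an exact 95% counting interval of 249.7 to 55076. That interval covers counting error only, and the WT sets themselves stood at 5.29, 4.93 and 12.1 CPM. The adjusted p of these 16 genes is given for the main fit. With 1 set left out, the highest value of each ran from 0.00581 for FAH to 0.0444 for LOC100353947 and 0.0493 for DBF4, the last just under the threshold.

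**Figure D2:**
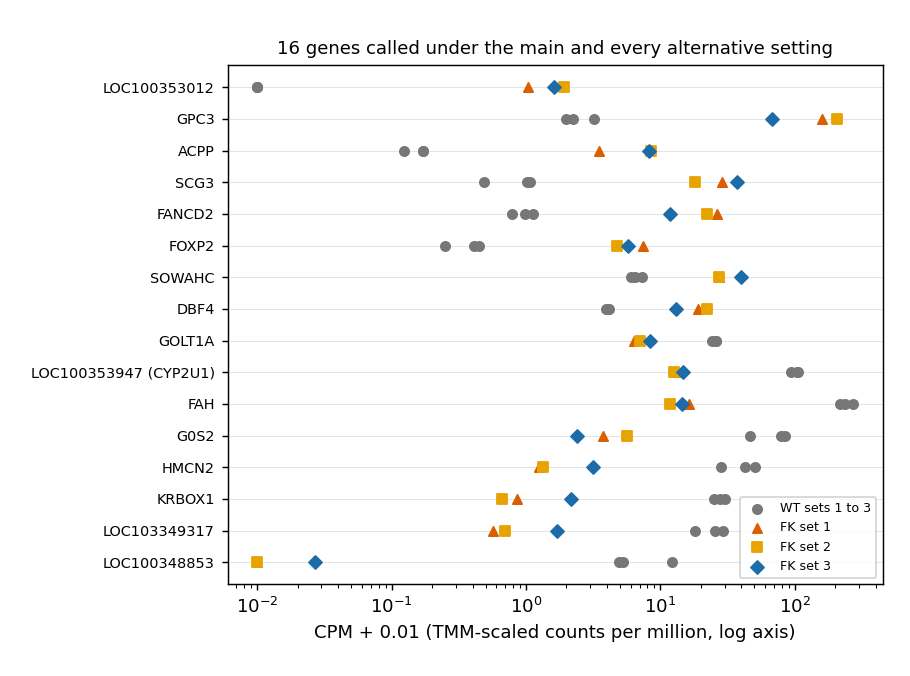
CPM of the 16 genes called in the main fit and under all 17 alternatives, on a log axis with 0.01 CPM added, for the 3 WT sets (grey) and FK sets 1, 2 and 3 (triangle, square, diamond). The upper 8 genes have all FK sets above all WT sets and the lower 8 have all FK sets below, FAH among them.

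A further group of genes rose or fell to much the same extent in all FK sets. Among called genes that averaged 10 CPM or more in FK or WT, whichever was higher, the 10 largest rises and 10 largest falls whose highest FK set was under 2 times the lowest were taken. After SOWAHC and DBF4, the rises were of TCP11L2, EPS8, ADAMTS12, MTR, PLEKHB2, ADCY10, FBXO32 and CDKN1A. MTR, the methionine synthase that passes a methyl group from folate to homocysteine, stood at 5.4, 6.39 and 4.83 CPM in WT and 26.5, 20.5 and 21.7 CPM in FK, a rise of 4.14-fold (adjusted p = 0.0314). CDKN1A, the p21 inhibitor of cyclin-dependent kinases, stood at 11, 13.2 and 15.4 CPM in WT and 39.7, 60.6 and 34.5 CPM in FK, a rise of 3.4-fold (adjusted p = 0.0304). In both genes all FK sets exceeded all WT sets, and FK set 3 was not set apart from the other two. FBXO32, a ubiquitin ligase subunit known from muscle wasting, stood at 3.19, 2.67 and 8.02 CPM in WT and 16.1, 13.9 and 17.7 CPM in FK. WT set 3 was well above the other WT sets, and the 3.43-fold rise (adjusted p = 0.0491) was 5.41-fold without it.

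EPS8, a regulator of actin and a substrate of the EGF receptor, stood at 5.67, 8.12 and 8.8 CPM in WT and 33.8, 38.8 and 21.6 CPM in FK, a rise of 4.17-fold (adjusted p = 0.015). ADAMTS12, a secreted metalloprotease, stood at 4.9, 5.75 and 6.5 CPM in WT and 27.6, 22.4 and 21.5 CPM in FK, a rise of 4.17-fold (adjusted p = 0.0128). ADCY10, the soluble adenylyl cyclase that responds to bicarbonate, stood at 2.33, 3.56 and 4.1 CPM in WT and 13.9, 12.4 and 8.94 CPM in FK, a rise of 3.53-fold (adjusted p = 0.0232). PLEKHB2, a membrane protein with a pleckstrin homology domain, and TCP11L2 rose 3.98-fold and 4.2-fold, and PLEKHB2 was highest in FK set 3, at 89.5 CPM. Of these 10 rises, 3, 6 and 10 were called without FK set 1, 2 and 3, and 2, 2 and 3 without WT set 1, 2 and 3.

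The falls that were even over the FK sets were of FAH, HMGCS1, NRP2, FDPS, NSDHL, ELOVL6, PXMP4, GNMT, TKFC and MVK. HMGCS1, FDPS, NSDHL and MVK make sterols and their isoprenoid precursors. HMGCS1, which makes the HMG-CoA from which that route starts, stood at 2830.4, 952 and 1671 CPM in WT and 104, 169 and 115 CPM in FK. The WT sets were spread, with set 1 the highest and set 2 the lowest, but the highest FK set was far under the lowest WT set, and the fall was 14-fold (adjusted p = 0.0271). MVK, the mevalonate kinase, stood at 59.1, 24.1 and 43.8 CPM in WT and 7.03, 13.6 and 12.4 CPM in FK, a fall of 3.85-fold (adjusted p = 0.0392). ELOVL6, which lengthens palmitate, stood at 159, 76.8 and 157 CPM in WT and 30.1, 34 and 17.5 CPM in FK, a fall of 4.81-fold (adjusted p = 0.0488). In MVK and ELOVL6, WT set 2 was the lowest of the WT sets but still above every FK set.

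TKFC, the triokinase that takes up the products of fructose breakdown, stood at 125, 131 and 157 CPM in WT and 28.2, 37.2 and 38.7 CPM in FK, a fall of 3.96-fold (adjusted p = 0.0162). PXMP4, a peroxisomal membrane protein, stood at 55.8, 36.5 and 42.7 CPM in WT and 9.75, 11.1 and 12.6 CPM in FK, a fall of 4.04-fold (adjusted p = 0.0109), and was called in 16 of the 17 alternatives. NRP2, a neuropilin that binds semaphorins and VEGF, stood at 392.5, 243 and 157 CPM in WT and 38.8, 26 and 42 CPM in FK, a fall of 7.41-fold (adjusted p = 0.0414). FK set 3 was the least reduced FK set in NRP2 and TKFC, as well as in PXMP4, but by a small margin. Of these 10 falls, 1, 2 and 10 were called without FK set 1, 2 and 3, and 2, 4 and 2 without WT set 1, 2 and 3.

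**Figure D3:**
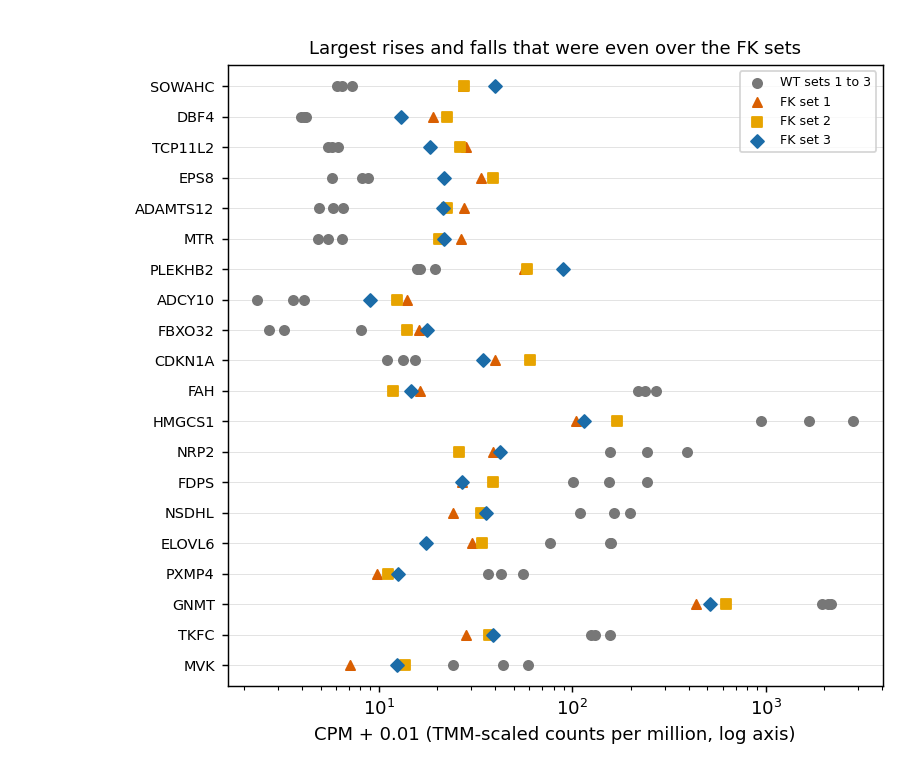
CPM of the 10 largest rises and 10 largest falls that were even over the FK sets, on a log axis with 0.01 CPM added, for the 3 WT sets (grey) and FK sets 1, 2 and 3. In each gene the FK sets lie within 2-fold of each other and do not overlap the WT sets.

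The called genes that took the largest share of counts were ranked in each direction. A CPM value depends on transcript length, so this ranking is by share of counts and not by number of molecules. Among the falls it named HPD, GNMT, HMGCS1, MSMO1, CYP7A1, ACSS2, GPAM, ACACB, EHHADH and DGAT2, enzymes of tyrosine, methionine, sterol, bile acid and fat metabolism. ACSS2, which makes acetyl-CoA from acetate, stood at 1190.0, 418 and 584 CPM in WT and 66.4, 109 and 181 CPM in FK, a fall of 6.15-fold (adjusted p = 0.0409). EHHADH, an enzyme of peroxisomal fatty acid oxidation, stood at 501, 541 and 492 CPM in WT and 133, 136 and 148 CPM in FK, a fall of 3.68-fold (adjusted p = 0.0408). Its sets were tight in both groups, and no setting of 1 set left out moved the fold beyond 3.57 to 3.8. DGAT2, which closes triglyceride synthesis, stood at 477, 577 and 465 CPM in WT and 28.5, 62 and 153 CPM in FK, a fall of 6.25-fold (adjusted p = 0.0414) that was 11.2-fold without FK set 3. MSMO1, a methylsterol oxidase of cholesterol synthesis, stood at 2103, 1432 and 1489 CPM in WT and 150.5, 160.4 and 381.5 CPM in FK, a fall of 7.26-fold (adjusted p = 0.0263). Every FK set of these genes was below every WT set. None of the 10 falls kept its call without FK set 1, without FK set 2 or without any 1 WT set, where adjusted p values reached 0.153 in edgeR, and all 10 kept it without FK set 3.

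The rises with the largest share of counts were APOA1, AFP, SLC25A47, CTH, ACAT1, SDC4, ELOVL2, CA2, STAT3 and TFRC. APOA1, the main protein of high-density lipoprotein, is made chiefly by the intestine in the adult rabbit. It stood at 28, 34.2 and 49.2 CPM in WT and 2716, 2564 and 74.8 CPM in FK. FK sets 1 and 2 were far above WT, while FK set 3 lay just above the highest WT set, and the 48.1-fold rise (adjusted p = 0.0404) was 71.1-fold without FK set 3. SLC25A47, a mitochondrial carrier of the liver, stood at 34.6, 46.8 and 25.2 CPM in WT and 749, 913 and 90.1 CPM in FK, a rise of 16.4-fold (adjusted p = 0.0368). ELOVL2, which lengthens polyunsaturated fatty acids, stood at 55.9, 50.5 and 76.8 CPM in WT and 628, 427.5 and 137 CPM in FK, a rise of 6.51-fold (adjusted p = 0.0368). SDC4, a cell-surface heparan sulfate proteoglycan, stood at 64.8, 66.1 and 61.3 CPM in WT and 489, 625 and 172 CPM in FK, a rise of 6.69-fold (adjusted p = 0.0304). In these 3 genes FK set 3 was above every WT set but well below the other FK sets.

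STAT3 and ACAT1 rose less and more evenly. STAT3, which carries the signal of interleukin 6 to acute phase genes, stood at 143, 103 and 165 CPM in WT and 321, 358 and 426 CPM in FK, a rise of 2.69-fold (adjusted p = 0.0414), with FK set 3 the highest set. ACAT1, the mitochondrial thiolase of ketone body metabolism, stood at 232.5, 275 and 243 CPM in WT and 631, 495 and 423 CPM in FK, a rise of 2.06-fold (adjusted p = 0.0492). Both FK ranges lay above the WT ranges. Without FK set 1, FK set 2 and FK set 3, 0, 1 and 10 of these 10 rises kept their call, and none kept it without any 1 WT set.

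The largest falls by fold included LINGO4, LGALS3 and PER2 besides G0S2, HMCN2 and the sterol genes. LINGO4, a leucine-rich repeat protein, stood at 52.1, 48.1 and 61.9 CPM in WT and 0.831, 0.758 and 8.06 CPM in FK, a fall of 16.8-fold (adjusted p = 0.0425), or 68-fold without FK set 3. LGALS3, galectin-3, stood at 60.1, 59.7 and 65.1 CPM in WT and 3.6, 5.17 and 15.4 CPM in FK, a fall of 7.66-fold (adjusted p = 0.034), or 14.1-fold without FK set 3. All FK sets were below all WT sets. Of the 20 largest falls, 4, 6 and 20 kept their call without FK set 1, 2 and 3, and 5 in each case without 1 WT set.

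The largest rises were mostly carried by FK sets 1 and 2. THBS1, thrombospondin, stood at 7.2, 5.51 and 7.61 CPM in WT and 289, 314 and 13.4 CPM in FK, a rise of 30.3-fold (adjusted p = 0.0368). CD163, the scavenger receptor of macrophages for haemoglobin bound to haptoglobin, stood at 0.192, 0.322 and 0.13 CPM in WT and 31, 27.9 and 1.3 CPM in FK, a rise of 93.6-fold (adjusted p = 0.0355). CA2, a cytosolic carbonic anhydrase that red cells hold in quantity, stood at 5.65, 5.4 and 12.6 CPM in WT and 592, 503 and 16.7 CPM in FK, a rise of 47-fold (adjusted p = 0.0414). FK set 3 exceeded the highest WT set in each, but by much less than FK sets 1 and 2 did. ALDH1L2, a mitochondrial enzyme of the folate pool, stood at 0.463, 0.435 and 0.518 CPM in WT and 34.5, 29.4 and 0.777 CPM in FK, a rise of 45.6-fold (adjusted p = 0.0408). MMD, named for its rise as monocytes become macrophages, stood at 1.28, 2.19 and 2.48 CPM in WT and 118, 149.8 and 3.92 CPM in FK, a rise of 45.7-fold (adjusted p = 0.0392). CIT, CKAP2L and CKS2, which act in cytokinesis, on the spindle and on cyclin-dependent kinases, rose 66.2-fold, 25.7-fold and 22.9-fold, or 27.9-fold, 13.5-fold and 11.5-fold without FK set 2. Without FK set 3 the folds of THBS1, CA2 and MMD were 44.5, 69.4 and 67.6. Of the 20 largest rises, 2, 2 and 20 kept their call without FK set 1, 2 and 3, and 2 in each case without 1 WT set.

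Markers of neutrophils, megakaryocytes and mast cells moved with these rises in FK sets 1 and 2. Of 10 neutrophil markers tested, 4 rose (40%, against 3.04% of all genes), 9 were higher at an unadjusted p under 0.05 and 7 were called higher by DESeq2. Of all genes, 16.7% were higher at that p and DESeq2 called 10.9% higher, and these shares apply to the lists below as well. Sums here are over all markers of a list in the data, tested or not. For the 12 neutrophil markers the sum was 28, 34.3 and 33.6 CPM in WT sets 1, 2 and 3 and 1225, 2102 and 37.1 CPM in FK sets 1, 2 and 3. CAMP, a granule peptide, stood at 1.34, 3.08 and 1.17 CPM in WT and 128, 500.0 and 1.86 CPM in FK (adjusted p = 0.0491). FK set 3 lay within the WT range. Of 8 megakaryocyte and platelet markers tested 1 was called, GP9 (12.5%), 7 were higher at an unadjusted p under 0.05 and 5 were called higher by DESeq2. The sum over all 10 was 71.4, 82.5 and 52.4 CPM in WT and 221, 244 and 76.3 CPM in FK. Of 6 mast cell and basophil markers tested 1 was called, SLC18A2, a vesicular monoamine transporter (16.7%), 5 were higher at an unadjusted p under 0.05 and 5 were called higher by DESeq2. The sum over all 8 was 4.36, 4.49 and 4.05 CPM in WT and 40.5, 35.1 and 2.53 CPM in FK. The 13 macrophage and Kupffer cell markers tested had 1 call, CD163, and the sum over all 14 was 904, 707 and 763 CPM in WT and 978, 638 and 632 CPM in FK, which overlapped. No marker of these 4 lists or of the erythroid list was at 0 in all FK and WT sets except 1 of the mast cell list. Without FK set 3, edgeR called 12 of 12 neutrophil, 9 of 10 megakaryocyte and 6 of 6 mast cell markers higher, against 18.7% of all genes. These are out of the markers tested in that fit, whose low-count filter was applied anew. The part of these cells in the rises that FK set 3 did not share was not tested.

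Few markers of the other cells of the liver were called by edgeR. Their counts stand beside 16.7% of all genes higher and 10.2% lower at an unadjusted p under 0.05. By DESeq2, 10.9% of all genes were called higher and 6.32% lower. Of 18 stellate cell and fibroblast markers 0 were called by edgeR (1 higher and 5 lower at an unadjusted p under 0.05, 1 higher and 2 lower by DESeq2), with a sum of 472, 463 and 522.5 CPM in WT and 365, 399 and 365 CPM in FK. The 3 FK sums were all below the 3 WT sums. Of 16 endothelial markers 1 fell (6.25%, against 1.73% of all genes), CLEC4G, a lectin of sinusoidal endothelium, which stood at 18, 11.5 and 19.1 CPM in WT and 4.73, 4.55 and 8.82 CPM in FK (adjusted p = 0.0459). At an unadjusted p under 0.05, 4 endothelial markers were lower and 0 higher, and DESeq2 called 2 lower and 0 higher. In 7 of the 16 every FK set was below every WT set, and the list's median was -0.27, -0.15 and -0.34 in FK sets 1, 2 and 3. Of 13 bile duct markers 1 fell (7.69%), SOX9, a transcription factor of bile duct and progenitor cells, which stood at 3.1, 2.95 and 2.9 CPM in WT and 0.719, 0.713 and 0.963 CPM in FK (adjusted p = 0.034). CLEC4G and SOX9 were lower in every FK set. The bile duct list as a whole was mixed. In it 3 markers were higher and 3 lower at an unadjusted p under 0.05, and DESeq2 called 2 higher and 2 lower. Its median was -0.64, 0.34 and -1.04 in FK sets 1, 2 and 3. Of 16 T and NK cell markers 1 fell (CD5; 6.25%, against 1.73% of all genes), 11 were lower and 1 higher at an unadjusted p under 0.05 (10.2% of all genes were lower), and DESeq2 called 9 lower (6.32% of the tested genes) and 1 higher. In 10 of the 16 every FK set was below every WT set, as in 2005 of all 14939 genes, and the list's median was -3.04, -1.57 and -1.24 in FK sets 1, 2 and 3. Levels were low, with a sum over all 17 members in the data of 14.1, 17.8 and 22 CPM in WT and 8.69, 12.6 and 6.94 CPM in FK. Of 14 B and plasma cell markers 1 fell (MS4A1; 7.14%), 8 were lower at an unadjusted p under 0.05 and 3 by DESeq2. In 9 the FK sets lay below the WT sets, and the median was -1.87, -1.03 and -1.69. The sum of the latter list, over all 15 markers in the data, reached 984 CPM in FK set 3 through XBP1, a factor that hepatocytes also express, at 953 CPM.

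Functional groups were described by the number of members called, beside the 3.04% of all genes called higher and 1.73% called lower, and beside a median log2 difference of 0.05 over all genes. Calls of single genes again rested on all sets: of 134 called genes examined one by one, those of the lists included, 18, 27 and 134 kept their call without FK set 1, 2 and 3. Solute carriers, the membrane transporters of small molecules, had 16 rises (5.95%) and 4 falls (1.49%) among 269 tested. SLC38A2, a stress-inducible carrier of neutral amino acids, stood at 22.9, 22.2 and 43.8 CPM in WT and 151, 98.7 and 65.6 CPM in FK, a log2 rise of 1.83 (SE 0.37, adjusted p = 0.0408). SLC12A2, the sodium, potassium and chloride cotransporter, stood at 7.32, 3.77 and 3.52 CPM in WT and 29, 17.4 and 35.7 CPM in FK, a log2 rise of 2.49 (SE 0.48, adjusted p = 0.0368). In both, every FK set exceeded every WT set. SLC36A4, an amino acid carrier, stood at 1.52, 1.76 and 2.46 CPM in WT and 68.4, 70.1 and 2.26 CPM in FK and was called (adjusted p = 0.0441), although FK set 3 lay within the WT range. SLC7A1, the carrier of arginine and lysine, stood at 0.463, 0.354 and 0.454 CPM in WT and 6.73, 17.8 and 0.507 CPM in FK (adjusted p = 0.0491). Among the falls, SLC25A28, which brings iron into mitochondria, stood at 84.9, 96.3 and 63.2 CPM in WT and 8.98, 10.8 and 29.4 CPM in FK (4.97-fold, or 8.22-fold without FK set 3, adjusted p = 0.0368). SLC23A1, a vitamin C carrier, stood at 19.3, 21 and 19.6 CPM in WT and 7.97, 10.3 and 12.1 CPM in FK (adjusted p = 0.0414). Without FK set 3 the group had 90 rises and 51 falls among 278 tested. In that fit 18.7% of all genes were called higher and 16.2% lower.

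The circadian clock list had no rise and 4 falls (23.5%) among 17 tested, PER2, CRY1 and NPAS2 among them. The sample titles give no time of day at which a liver was taken, and its part in these values was not tested. PER2, a repressor of the clock, stood at 21.6, 23.5 and 13.6 CPM in WT and 1.1, 1.35 and 5.85 CPM in FK, a fall of 7.06-fold (adjusted p = 0.0427), or 15.9-fold without FK set 3. CRY1, its partner, stood at 22, 22.3 and 40.01 CPM in WT and 9.06, 7.37 and 5.63 CPM in FK (log2 -1.93, adjusted p = 0.0461). Both were below WT in all FK sets, and PER2 was less reduced in FK set 3 than in the other two. Other members parted the FK sets. NR1D1 (REV-ERB alpha), a clock repressor, stood at 7.92, 5.62 and 2.82 CPM in WT sets 1, 2 and 3 and at 1.47, 4.67 and 41.6 CPM in FK sets 1, 2 and 3, and NR1D2 at 49.3, 49.9 and 39.2 and 27, 19.1 and 161 CPM. Both were above every WT set in FK set 3 and below every WT set in FK set 1, and neither was called (adjusted p = 0.371 and 0.621). The list's median was -1.37, -0.95 and 0.39 in FK sets 1, 2 and 3. Without FK set 3 it had 1 rise and 8 falls among 17 tested, against 18.7% and 16.2% of all genes.

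Growth signalling lists differed in their calls. Of 15 EGF family ligands and receptors and related factors 2 rose (13.3%) and none fell. EGFR, the receptor, stood at 76.6, 75.1 and 67 CPM in WT and 148, 148.5 and 139 CPM in FK, a 1.99-fold rise (adjusted p = 0.0355) in which the sets of each group were nearly equal. HGF, the hepatocyte growth factor that non-parenchymal cells secrete, stood at 5.29, 5.7 and 7.21 CPM in WT and 96.2, 52.1 and 17.8 CPM in FK, a 9.13-fold rise (adjusted p = 0.034) with FK set 1 the highest and set 3 the lowest of the FK sets. Without FK set 1 the rise was 5.77-fold. Of 21 dual-specificity phosphatases and feedback genes of MAP kinases 3 rose (14.3%), DUSP9, PHLDA1 and DUSP4. PHLDA1 stood at 6.9, 6.35 and 10.03 CPM in WT and 87.8, 96.4 and 13 CPM in FK (log2 3.08, adjusted p = 0.0427). Of 23 Hippo pathway genes and YAP targets 2 rose (8.7%), the kinase STK3 and its adaptor SAV1, which restrain YAP. STK3 stood at 5.19, 4.14 and 5.07 CPM in WT and 11.8, 10.5 and 9.76 CPM in FK, a 2.23-fold rise (adjusted p = 0.0286), and SAV1 at 8.1, 7.18 and 8.55 and 19.9, 25.1 and 11.1 CPM (adjusted p = 0.0459). Both members act upstream of YAP, and no YAP target of the list was called. Of 38 tubulins and kinesins 6 rose (15.8%), all of them mitotic kinesins. KIF18A stood at 0.303, 0.676 and 0.891 CPM in WT and 7.21, 10.7 and 2.21 CPM in FK (adjusted p = 0.0394), KIF4A at 0.256, 0.306 and 0.356 and 8.61, 20.2 and 0.642 CPM (adjusted p = 0.0414), and KIF14 at 0.431, 0.161 and 0.275 and 13.7, 31.6 and 0.338 CPM (adjusted p = 0.0471). These rises lay mainly in FK sets 1 and 2, while FK set 3 was far nearer to WT and, in KIF14, within the WT range. Of 12 fibroblast growth factors and receptors none rose and 1 fell (8.33%), FGFR1, at 10.3, 9.74 and 13 CPM in WT and 4.54, 3.23 and 6.2 CPM in FK (log2 -1.24, adjusted p = 0.0473). Of 43 genes of TGF-beta, BMP and activin signalling 0 were called by edgeR, where 8 were higher and 7 lower at an unadjusted p under 0.05, and DESeq2 called 5 higher and 5 lower. Of all genes, 16.7% were higher and 10.2% lower at that p, and DESeq2 called 10.9% higher and 6.32% lower.

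Proteins of the cell surface and matrix changed in both directions. Of 24 tight junction genes 3 fell (12.5%) and none rose, all of them claudins. CLDN15 stood at 34.1, 31.9 and 22.1 CPM in WT and 12.9, 10.4 and 7.7 CPM in FK (log2 -1.51, adjusted p = 0.0407), and CLDN5, an endothelial claudin, at 12.7, 8.91 and 10.4 and 3.08, 3.47 and 3.72 CPM (log2 -1.64, adjusted p = 0.0314). Both fell to a similar level in all FK sets. CLDN11 was the other. Of 47 matrix proteases and inhibitors 4 rose (8.51%), MMP11, ADAMTS12, ADAMTS9 and ADAM10, and 1 fell (2.13%), the inhibitor TIMP3. MMP11, stromelysin-3, stood at 0.815, 1.11 and 1.25 CPM in WT and 19.3, 13.2 and 4 CPM in FK (log2 3.52, adjusted p = 0.0314), and TIMP3 at 25.3, 21.2 and 17.2 and 10.9, 12.7 and 12.6 CPM (log2 -0.82, adjusted p = 0.0491). ADAM10, the sheddase of many membrane proteins, stood at 26.8, 25.1 and 33.8 CPM in WT and 66.4, 70.9 and 44.7 CPM in FK (log2 1.09, adjusted p = 0.0392). Of 59 glycan-building transferases 5 rose (8.47%) and 1 fell (1.69%). B4GALT6, a lactosylceramide synthase, stood at 5.54, 3.22 and 7.84 CPM in WT and 23, 11.8 and 27.1 CPM in FK (adjusted p = 0.0441), with FK set 3 the highest, and ST8SIA3, a sialyltransferase, fell from 7.86, 5.93 and 8.44 to 3.48, 2.2 and 1.99 CPM (adjusted p = 0.0382).

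Ion handling and steroid genes held some of the calls that FK set 3 shared. TRPM6, a magnesium channel, stood at 2.7, 1.51 and 1.94 CPM in WT and 7.56, 12.4 and 16.5 CPM in FK (log2 2.56, adjusted p = 0.015), with FK set 3 the highest. CA5B, a mitochondrial carbonic anhydrase, stood at 0.767, 0.886 and 1.36 CPM in WT and 5.24, 5.16 and 6.03 CPM in FK (log2 2.44, adjusted p = 0.0166). SCNN1B, a subunit of the epithelial sodium channel, had 60 counts in FK and 1 in WT, a ratio of 59.6 with an exact 95% counting interval of 10.3 to 2393, which covers counting error only and not the spread between sets. These 3 genes were higher in every FK set. Of 22 steroid genes 2 rose and 2 fell (9.09% each). SRD5A1, a steroid reductase, stood at 12.5, 7.75 and 10.3 CPM in WT and 1.49, 1.27 and 3.62 CPM in FK (4.78-fold lower, or 7.36-fold without FK set 3, adjusted p = 0.0363). HSD17B7, which also acts in cholesterol synthesis, stood at 92.8, 61.1 and 67 CPM in WT and 25.3, 25.4 and 22.8 CPM in FK (log2 -1.59, adjusted p = 0.0382). The identifier LOC100346394, named CYP17A1 in the RefSeq table, rose to 6.98, 13.1 and 0.98 CPM in FK from 0.415, 0.612 and 0.308 CPM in WT (adjusted p = 0.0414), mostly in FK sets 1 and 2.

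Groups of housekeeping genes mostly had no call by edgeR. Their counts stand beside 16.7% of all genes higher and 10.2% lower at an unadjusted p under 0.05. By DESeq2, 10.9% of all genes were called higher and 6.32% lower. Of 73 cytosolic ribosomal protein genes 0 were called, while 2 were higher and 2 lower at an unadjusted p under 0.05, and DESeq2 called 1 higher and 1 lower. Of 36 proteasome subunits 0 were called, while 0 were higher and 5 lower at an unadjusted p under 0.05, and DESeq2 called 0 higher and 2 lower. Of 20 tRNA synthetases 0 were called, while 2 were higher and 0 lower at an unadjusted p under 0.05, and DESeq2 called 1 higher and 0 lower. The FK sets were nonetheless not alike in these groups. The ribosomal protein median was 0.25, 0.28 and -0.65 in FK sets 1, 2 and 3 on the log2 scale, and that of the tRNA synthetases was 0.44, 0.46 and -0.30. Nucleotide synthesis genes had medians of 0.72, 0.66 and -0.38 for 14 purine genes and 1.02, 1.08 and 0.11 for 15 pyrimidine genes. EdgeR called 0 of either. Of the purine genes 4 were higher and 0 lower at an unadjusted p under 0.05, and DESeq2 called 2 higher and 0 lower, and of the pyrimidine genes 7 were higher and 1 lower at an unadjusted p under 0.05, and DESeq2 called 5 higher and 1 lower. Without FK set 3, 10 purine genes and 7 pyrimidine genes were called higher and 1 of each lower, against 18.7% and 16.2% of all genes. Retinoid metabolism had a median below WT in each FK set, at -1.28, -1.46 and -0.63. Of its 21 genes 1 fell (4.76%, against 1.73% of all genes), RDH11, a retinal reductase. RDH11 stood at 85.8, 32.6 and 43.7 CPM in WT and 15.6, 20.3 and 16.5 CPM in FK (adjusted p = 0.0497). At an unadjusted p under 0.05, 7 retinoid genes were lower and 1 higher, and DESeq2 called 5 lower and 1 higher. In 10 of the 21 every FK set was below every WT set, as in 2005 of all 14939 genes, and in 1 every FK set was above. Without FK set 3, 12 retinoid genes were called lower and 1 higher, against 16.2% and 18.7% of all genes.

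**Figure D4:**
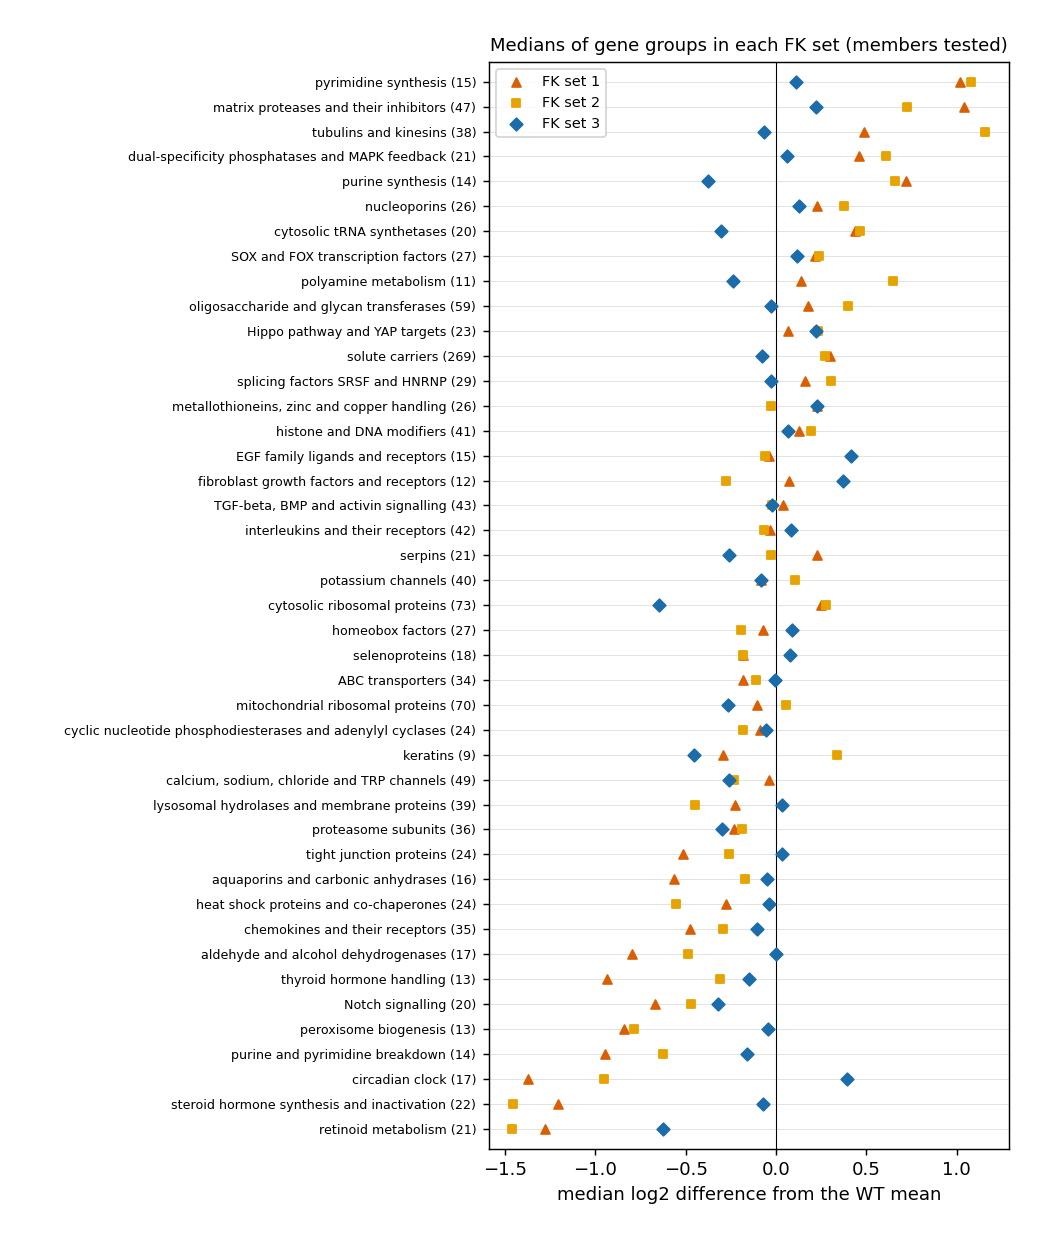
Median log2 difference from the WT mean of each gene group in FK sets 1 (triangle), 2 (square) and 3 (diamond), with the number of members tested in brackets and a line at 0. Circadian clock genes lie at -1.37, -0.95 and 0.39 and cytosolic ribosomal proteins at 0.25, 0.28 and -0.65 in FK sets 1, 2 and 3, while retinoid metabolism lies below 0 in each set.

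Some genes parted the FK sets on opposite sides of WT. Among 6591 genes with a symbol and a mean of at least 10 CPM over the 6 sets, 90 were at least 2-fold above every WT set in FK sets 1 and 2 and below every WT set in FK set 3. For 89 the reverse held. They are given as a description with no test, since the pattern chose them. ALOX15, a lipoxygenase of reticulocytes and eosinophils, stood at 0.607, 0.242 and 0.518 CPM in WT and 187, 1435 and 0.0169 CPM in FK. SLC4A1, the anion exchanger of the red cell membrane, stood at 0.128, 0.161 and 2.4 CPM in WT and 183, 723 and 0.0845 CPM in FK. FK sets 1 and 2 were far above WT in both, and FK set 3 was below the lowest WT set. MCP-1 and YPEL4 had the same pattern, with 45.4, 104 and 0 CPM for YPEL4 in FK sets 1, 2 and 3.

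In the other direction, CYP2C5, a steroid-hydroxylating P450, stood at 786, 1053 and 927 CPM in WT and 0.447, 0.212 and 2083 CPM in FK, and UGT2B16, a glucuronosyltransferase, at 419, 583 and 684 and 0.575, 0.88 and 872 CPM. Both belong to families of similar genes, so their levels are uncertain. ABCG5 and ABCG8, which together pump sterols into bile, stood at 36.6, 36.8 and 39.4 CPM and 32, 27.6 and 27.9 CPM in WT and at 0.0479, 0.0758 and 66.2 CPM and 0.032, 0.0303 and 35.3 CPM in FK. The 2 transporters were nearly silent in FK sets 1 and 2 and above every WT set in FK set 3. PGER2 had the same pattern, at 2.99, 5.16 and 2738 CPM in FK. In the FA sets, ABCG5 stood at 86.5, 40.7 and 55.5 CPM and CYP2C5 at 1291, 526 and 3057 CPM. None of the genes named for these opposite patterns was called between FK and WT in the main fit, where ALOX15 had an adjusted p of 0.0642 and CYP2C5 of 0.925.

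Genes that left the WT range in FK set 3 alone were picked by another rule. It took genes with a symbol and at least 10 CPM in FK set 3 or in the WT mean. FK sets 1 and 2 both had to lie inside the range of the 3 WT sets. Their numbers therefore cannot be compared with those of the opposite patterns. At least 2-fold above every WT set in FK set 3, with FK sets 1 and 2 inside the WT range, were 10 genes, and 9 were at least 2-fold below. CUX2, a homeobox factor known for its female bias in rodent liver, stood at 2.84, 0.854 and 0.535 CPM in WT, 1.58, 1.59 and 139 CPM in FK and 163, 93.4 and 165 CPM in FA. Only FK set 3 of the 6 FK and WT sets had a high level, and it lay within the range of the FA sets. TINAG and RUNDC3B were high in FK set 3, at 27.3 and 46.6 CPM. SERPINF1, which encodes the factor PEDF, stood at 78.1, 58 and 5.3 CPM in WT and 25, 6.26 and 2.6 CPM in FK, in a WT group that was itself widely spread.

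**Figure D5:**
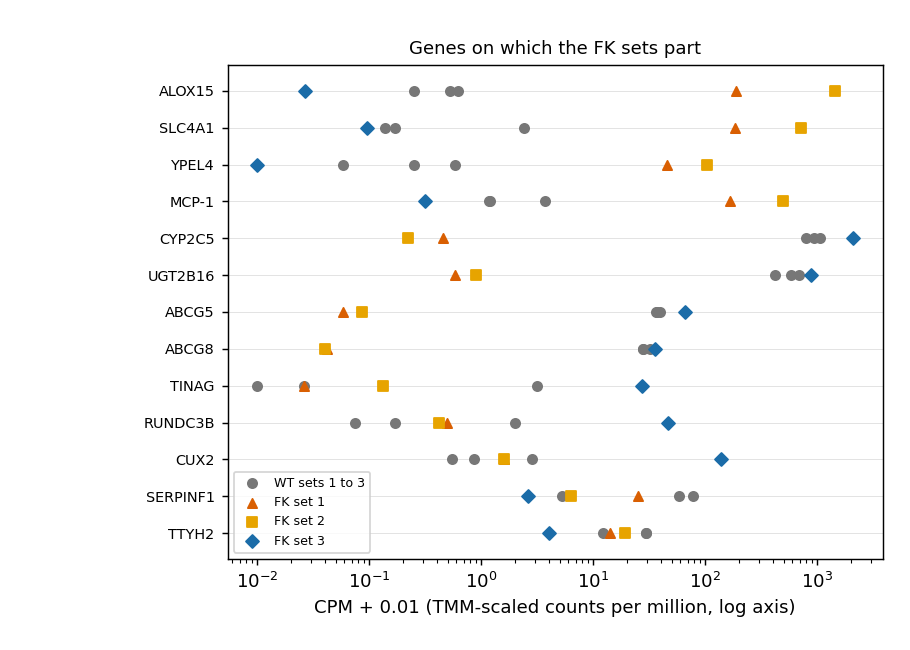
CPM of genes on which the FK sets part, on a log axis with 0.01 CPM added, for the 3 WT sets (grey) and FK sets 1, 2 and 3. From top to bottom are 4 genes high in FK sets 1 and 2 and low in set 3, 4 with the reverse, 3 high in FK set 3 alone and 2 low in FK set 3 alone.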

How the data were processed

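RNA sequencing of rabbit liver was read from 1 table of 23394 genes and 36 libraries. The authors deposited estimated counts, which are whole numbers in the table. The submitters' processing notes name Salmon 0.14.1, but not what it did. The genome build is not given in the sources used here, and neither is any rounding. Libraries held 11.7 to 22.5 M counts. CPM (counts scaled by TMM and divided by the library's total in M) was computed here from the deposited counts. The kit's strand handling is not stated, so overlapping antisense genes are uncertain.

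The 4 libraries of a set were summed. One edgeR fit (version 4.0.16, under R 4.3.3) held all 9 sets, with TMM factors and a filter by group (filterByExpr), leaving 14939 genes, and FK was contrasted with WT by quasi-likelihood F tests at a Benjamini-Hochberg adjusted p under 0.05. Folds of single genes are ratios of mean CPM between FK and WT, over the remaining sets where a set is left out, unless counts are named. Log2 differences of FK from WT, and counts of genes over 16-fold, are fitted values. A standard error is the fitted log2 difference divided by the root of F. Differences of single sets are log CPM with a prior count of 2 minus the WT mean. The procedure was tested on simulated data.

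The contrast, the 43 function lists, the 11 marker lists and the tests were chosen with earlier results of these data known. Genes were named by rule. After FAH came called genes that had a symbol, averaged 10 CPM or more in either group and had sets that did not overlap. They were the 20 largest rises and 20 largest falls, the 10 with the highest mean in each direction, the 10 largest in each direction whose FK sets lay within 2-fold, and the 10 smallest p. Then came up to 3 called members per list in each direction, or the member with the smallest p. Other genes were chosen after their values were seen. Not all named genes are described, and some are not reported here. Deviations from the group means were nearly uncorrelated between FK and WT sets of the same number (r -0.031, -0.0075 and -0.026). No label says whether set numbers pair the sets, and these values do not settle it.

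The alternatives were RLE size factors, DESeq2 1.42.0, no low-count filter, at least 1 CPM in 3 sets, the FK and WT sets alone, a replicate block, a 2-fold minimum, library 1 of each set alone, and each of the 9 sets left out in turn. Python 3.11.15 with matplotlib 3.10.9 drew the figures. No sequence is printed, since no sequence table was used here.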

Additional observations from a re-analysis of the deposited data

How the results depend on the processing

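The number of genes called between FK and WT was 712, of which 454 were higher and 258 lower. RLE size factors, no filter, the filter of 1 CPM in 3 sets and the 2-fold minimum gave 685, 636, 619 and 644. DESeq2 called 2721 (1765 higher and 956 lower). The fit of the FK and WT sets alone called 43 (16 and 27), and library 1 of each set alone called 189 (99 and 90). No label says whether set numbers pair the sets. With the set number as a replicate block there were 47 calls (22 higher and 25 lower), of which 46 were among the 712. With 1 set left out the number ran from 22 to 5396 for all calls, from 12 to 2887 for higher calls and from 9 to 2509 for lower calls, the highest in each case without FK set 3. Leaving out a set changes both the estimate of the spread and the samples compared, and the share of each was not tested. Among 134 single genes with a main value, none changed direction in any alternative that gave it a value. Of these, 18 were on the same side of the threshold without FK set 1, 20 without each WT set, 27 without FK set 2 and 134 without FK set 3. Of the 712 called genes, all kept their direction without any 1 set except 1 gene without WT set 2. The filter of 1 CPM in 3 sets leaves out genes that reach 1 CPM in fewer than 3 sets, and gave a value for 115 of the 134.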
